A study of Homo sapiens with 6 samples.

Results

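The genes described here carry the interferon gamma signal from the cell surface to the nucleus: the receptor chains IFNGR1 and IFNGR2, the kinases JAK1 and JAK2, the transcription factor STAT3, the interferon regulatory factors IRF1 and IRF2, and the feedback inhibitors SOCS1 and SOCS3. They were taken by symbol for their roles as receptor chains, kinases, STAT, IRFs and SOCS inhibitors, with no threshold on a measured value, and 9 of 9 symbols were found among the 63086 genes of the count table. Of the 9, 8 had enough counts to test, and SOCS1 did not. The samples were 6 messenger RNA libraries of HEK293T, an established human embryonic kidney cell line. In the 3 libraries named 0Q, cells were kept without queuine in medium with dialyzed serum. In the 3 libraries named 100Q, such depleted cells were given queuine for 24 hours, at 100 nM by the sample characteristics and at 1 µM by the treatment protocol. The labels name no interferon treatment in either group, and all libraries come from 1 cell line. Nothing in the labels tells if the 3 libraries of a group came from separate cultures. The p-values thus measure only how far these samples spread, and that spread may be technical. In bulk RNA, fewer cells with a transcript and less of it per cell cannot be told apart.

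As background, interferon gamma binds a receptor built from IFNGR1, which holds the ligand and the STAT docking site, and IFNGR2, which is needed for signalling. JAK1 sits on IFNGR1 and JAK2 on IFNGR2, and the kinases phosphorylate STAT proteins that move to the nucleus and bind gamma-activated sites (GAS). IRF1 is a direct target and in turn activates genes of antigen presentation, IRF2 competes with it for the same DNA elements, and the SOCS proteins shut the kinases off. Queuine is a base that mammalian cells take up and exchange into certain tRNAs, where it forms queuosine. These tRNAs carry aspartate, asparagine, histidine or tyrosine. The title of the series names codon use, cell proliferation and MHC class II, a gene family that interferon gamma induces.

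Library totals ran from 4023956 estimated counts in 100Q replicate 2 to 11398835 in 100Q replicate 3, and 0Q lay between 7264638 and 8035251. On a principal component analysis of log2 CPM, 100Q replicate 2 stood alone on component 1 (30.9% of the variance), and 100Q replicate 1 stood alone on component 2 (22.7%). Where leaving out a library moved a fold change named below by over 1.5 times, the value without it, or the range over such fits, is given. Kidney and neuronal genes known from HEK293T, such as the neurofilament NEFM, averaged at least 1 CPM for 8 of 8, with a summed level of 367 to 405 CPM in 0Q and 315 to 376 CPM in 100Q. Of 8 blood cell markers, 4 (PTPRC, CD3E, LYZ and HBB) had 0 counts in every library, and the summed level of the list was 6.09 to 10.3 CPM in 0Q and 3.13 to 7.86 CPM in 100Q. Of 6 fibroblast markers 2 averaged at least 1 CPM, with a summed level of 29.9 to 33.8 CPM in 0Q and 32.8 to 37.9 CPM in 100Q. The part of these other markers in the results below was not tested.

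Promoter sequence is shown for a direct target of the signal, IRF1, and for a gene that ends it, SOCS1, since they hold the letters searched for. Windows of 250 bases before an annotated start (RefSeq, GRCh38.p14) were searched on both strands for the GAS letters TTCNNNGAA and for an IRF element (GAAA, any 2 bases, GAAA). Of 9 genes, 8 had a window, and IRF2 had no entry. In these windows IRF1 was the 1 gene of 8 with the GAS letters, which begin 124 bases before its start. SOCS1 was the 1 gene of 8 with the IRF element letters, which begin 113 bases before its start. For SOCS3, on the minus strand, no window covered the bases just beyond its gene boundary at 78360077, so these were not searched. Among all 27305 genes with a window, 8.09% held the GAS letters and 3.71% the IRF element letters. Both sequences run 5′ to 3′ on the minus strand, with the matched letters in capitals (IRF1 at chr5:132490774-132491023, SOCS1 at chr16:11256205-11256454).
IRF1: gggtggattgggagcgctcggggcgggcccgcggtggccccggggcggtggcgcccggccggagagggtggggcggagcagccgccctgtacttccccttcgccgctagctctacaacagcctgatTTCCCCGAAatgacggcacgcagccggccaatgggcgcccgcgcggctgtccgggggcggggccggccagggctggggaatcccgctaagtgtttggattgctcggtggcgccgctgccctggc
SOCS1: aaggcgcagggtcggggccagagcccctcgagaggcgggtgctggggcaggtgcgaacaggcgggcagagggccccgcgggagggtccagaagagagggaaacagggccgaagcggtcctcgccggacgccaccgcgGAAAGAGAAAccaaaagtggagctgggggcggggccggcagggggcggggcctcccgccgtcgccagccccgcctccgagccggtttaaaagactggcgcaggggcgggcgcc
A match of letters is a description of the sequence. No binding was measured in these samples.

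HEK293T cells held transcripts of the receptor, the kinase JAK1 and STAT3 at clearly higher levels than those of the IRFs, JAK2 and the SOCS genes. On a scale of CPM (counts divided by the library's TMM-scaled total and set to a common total, so that libraries of unequal depth compare) per kilobase of the canonical transcript, averaged over the 6 libraries with the SD, IFNGR2 was at 35.8 ± 3.53, IFNGR1 at 21.5 ± 3.62, JAK1 at 21.2 ± 0.774 and STAT3 at 15.6 ± 0.923. The other members were far lower, with IRF2 at 2.22 ± 0.801, IRF1 at 1.73 ± 0.899, JAK2 at 0.774 ± 0.182, SOCS3 at 0.581 ± 0.311 and SOCS1 at 0.367 ± 0.429. In this order, the ranges over libraries of IFNGR1 and JAK1 overlapped, as did those of IRF2 and IRF1, of IRF1 and JAK2, of JAK2 and SOCS3, and of SOCS3 and SOCS1. The ranges lay apart for IFNGR2 above IFNGR1 (lowest 33.3 against highest 26.1), for JAK1 above STAT3 (20.1 against 17.0) and for STAT3 above IRF2 (14.7 against 2.84). How evenly reads cover a transcript is not given in the sources used here, so the order per kilobase holds only for this length scale.

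The main comparison asked whether queuine supply went with a difference in these transcripts. No member passed: 0 of 8 tested members were called by the quasi-likelihood test of edgeR at a Benjamini-Hochberg adjusted p under 0.05, by DESeq2 or by limma-voom. Of all tested genes, 0.0134% of 14905 were called by edgeR, 0.0738% by DESeq2 and 0.00671% by limma-voom. IRF1 was the 1 member of 8 with an unadjusted p under 0.05 (edgeR), and it was lower in 100Q. Of all tested genes 4.72% had such a p, 2.23% lower and 2.49% higher in 100Q. Groups did not overlap in CPM for IRF1, lower in 100Q, and for STAT3, higher in 100Q, 2 of 8 members. Of all tested genes 10.6% had groups apart, 5.19% lower and 5.41% higher in 100Q. The median log2 fold change (100Q minus 0Q) of the 8 was -0.14, beside -0.0027 over all tested genes, and 5 of 8 were negative, beside 50.6%. This median rested on single libraries: leaving out 0Q replicate 1 gave -0.017. Leaving out 100Q replicates 1, 2 and 3 in turn gave -0.049, -0.064 and -0.25.

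**Figure D1:**
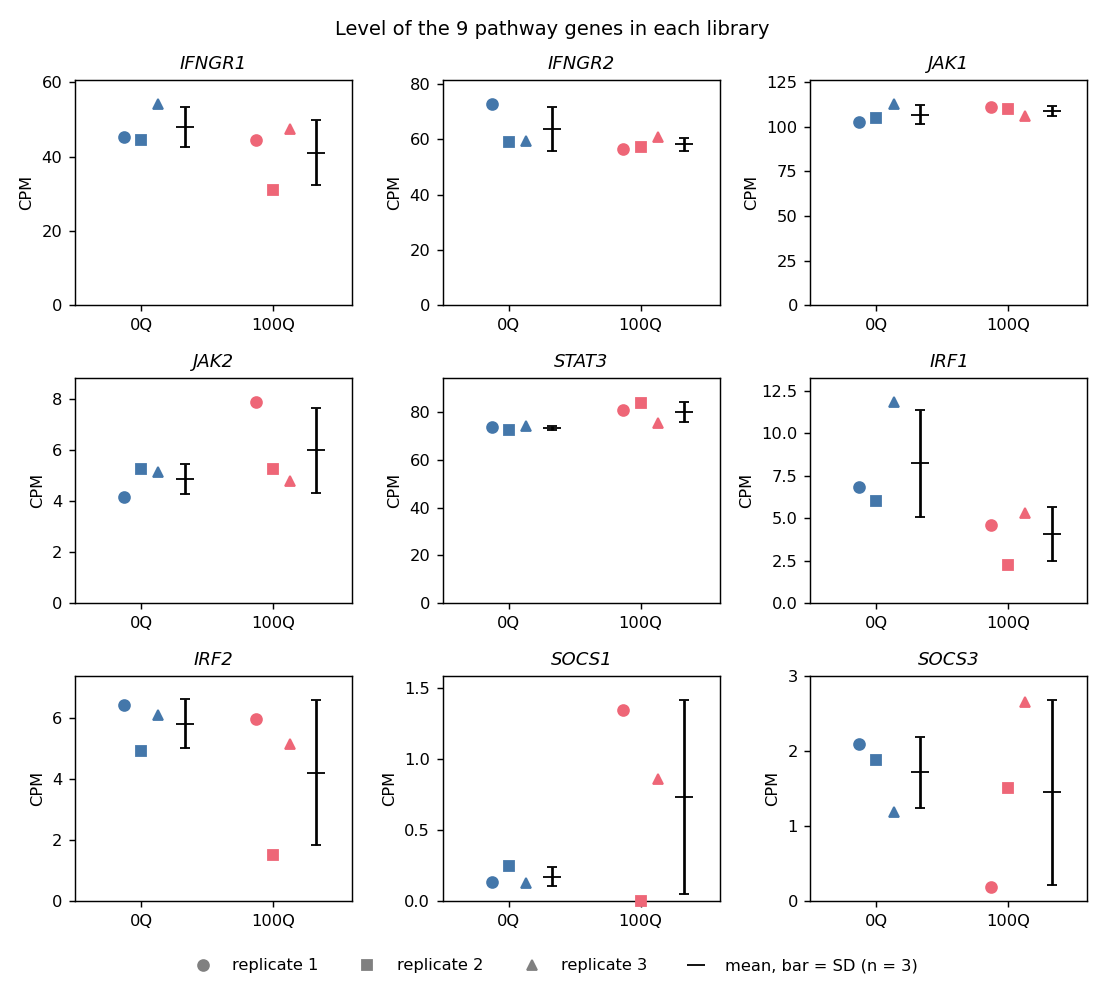
Level of each of the 9 genes in CPM (vertical axes, each from 0) in the 3 libraries of 0Q (blue) and the 3 of 100Q (red), with symbols for replicate numbers and black bars for the mean and SD. The groups lie apart for IRF1 (0Q from 6.04, 100Q up to 5.28 CPM) and STAT3 (0Q up to 73.8, 100Q from 75.4 CPM) and overlap for the other genes.

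IRF1, the transcription factor that carries the response on to antigen presentation genes, had the lowest fold change of the members. Its gene lies on chromosome 5 (132440440 to 132508719, minus strand, hg38). It had 6.84, 6.04 and 11.8 CPM in 0Q replicates 1 to 3 and 4.62, 2.26 and 5.28 CPM in 100Q replicates 1 to 3, from 49.0, 48 and 89.6 and from 24, 9 and 61.6 estimated counts. All 3 libraries of 100Q lay below all 3 of 0Q, by a small margin, with 0Q replicate 3 well above the rest and 100Q replicate 2 well below it. The means were 8.24 ± 3.14 and 4.05 ± 1.59 CPM (SD, n = 3 per group), and the log2 fold change was -0.97 ± 0.40 (SE) with a 95% interval of -1.83 to -0.11. By edgeR this gave an unadjusted p of 0.0291 and, after Benjamini-Hochberg adjustment over all tested genes, an adjusted p of 0.987. The exact permutation test of the CPM gave p = 0.1 (two-sided), the smallest that 3 libraries against 3 allow. Without 0Q replicate 3, the highest library, the log2 fold change was -0.62, and without 100Q replicate 2, the lowest, it was -0.72. The unadjusted p was then 0.201 and 0.0826 (edgeR quasi-likelihood test), while it was below 0.05 without any 1 of the other 4 libraries. The sign was negative in each of these fits.

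Some IRF1 counts were divided with a gene on the other strand. IRF1-AS1, a long noncoding RNA, overlaps 22.9% of the exon bases annotated for IRF1, and IRF1 was the 1 member of 9 with fractional counts. In each of the 3 libraries where IRF1 had a fractional count, adding IRF1-AS1 gave a whole number (within 0.011); in the other 3, both genes had whole counts already. The sums were 56, 54 and 102 in 0Q and 30, 12 and 76 in 100Q. As CPM they were 7.82, 6.79 and 13.5 in 0Q and 5.78, 3.01 and 6.52 in 100Q, and the groups still did not overlap. With both genes counted as 1, an alternative chosen after seeing the data, edgeR gave a log2 fold change of -0.83 ± 0.37 (SE) and a Benjamini-Hochberg adjusted p of 0.987. A further overlapping gene, ENSG00000283782, covers 3.96% of the IRF1 exon bases on the other strand and had 36.4, 195 and 0 estimated counts in the 0Q libraries and 81.9, 0 and 0 in the 100Q libraries. Adding it did not complete the fractions of IRF1 in any of the 3 libraries that had them. IRF1 plus ENSG00000283782 came to 11.9, 30.5 and 11.8 CPM in 0Q and 20.4, 2.26 and 5.28 CPM in 100Q, and these groups overlapped. The sources used here do not say if counting used the strand. Some reads were divided between IRF1 and IRF1-AS1, which lie on opposite strands, and from which gene the reads of the shared exon bases came is unknown.

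IRF2, the relative of IRF1 that competes for its DNA elements, followed a different library pattern. The gene lies on chromosome 4 (184385702 to 184474558, minus strand). It had 6.42, 4.91 and 6.08 CPM in 0Q and 5.97, 1.51 and 5.15 CPM in 100Q, so that 5 libraries lay close together and 100Q replicate 2, with 6 counts, stood alone below them. The log2 fold change was -0.42 (95% interval -1.38 to 0.54; edgeR) with all libraries and -0.07 without 100Q replicate 2. It was lowest, at -0.70, without 100Q replicate 1. The groups overlapped. As a ratio of 100Q to 0Q, the interval runs from 0.385 to 1.45.

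The receptor chains were well covered and differed little between the groups. IFNGR1 (chromosome 6, 137197483 to 137219449, minus strand), the ligand-binding chain, had 45.4, 44.4 and 54.2 CPM in 0Q and 44.5, 31.1 and 47.5 CPM in 100Q. The groups overlapped, and 100Q replicate 2 was again the lowest library. Its log2 fold change was -0.20 (95% interval -0.53 to 0.12; edgeR) and -0.06 without 100Q replicate 2. Over the fits with each library left out it ran from -0.33 to -0.06, the lowest without 100Q replicate 3. IFNGR2 (chromosome 21, 33403413 to 33479348, plus strand), the signalling chain, had 72.7, 59.0 and 59.2 CPM in 0Q and 56.6, 57.0 and 60.7 CPM in 100Q. Here 0Q replicate 1 was the 1 library that stood out, and the other 5 lay between 56.6 and 60.7 CPM. The log2 fold change was -0.13 (-0.37 to 0.12) and -0.02 without 0Q replicate 1. Both intervals exclude a 2-fold difference in either direction. TMEM50B overlaps 15% of the IFNGR2 exon bases on the other strand, with 156, 210 and 181 counts in the 0Q libraries and 116, 75 and 308 in the 100Q libraries.

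Of the kinases, JAK1 had the narrowest interval of the 8 members and JAK2 a wide one. JAK1 (chromosome 1, 64833223 to 65067754, minus strand), the partner of IFNGR1 and of many other cytokine receptors, had 103, 105 and 113 CPM in 0Q and 111, 109.7 and 106 CPM in 100Q. The libraries of both groups were interleaved. Its log2 fold change was 0.03 (95% interval -0.16 to 0.21; edgeR), which as a ratio is 0.897 to 1.16. With each library left out it ran from -0.0025 (0Q replicate 1) to 0.07 (0Q replicate 3). The noncoding LINC01359 overlaps 4.91% of its exon bases on the same strand, with at most 21 counts in a library. JAK2 (chromosome 9, 4984390 to 5129948, plus strand), the partner of IFNGR2, had 4.19, 5.28 and 5.15 CPM in 0Q and 7.89, 5.27 and 4.81 CPM in 100Q. A single library, 100Q replicate 1, was high, and the other 5 overlapped. The log2 fold change was 0.29 (-0.52 to 1.09) with it, 0.04 without it and up to 0.44 with another library left out (100Q replicate 3).

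STAT3, a STAT that interferon gamma activates beside its main use by the interleukin-6 family, was the 1 member whose libraries were all higher in 100Q. The gene lies on chromosome 17 (42313324 to 42388540, minus strand). Its level was 73.4, 72.3 and 73.8 CPM in 0Q and 80.7, 83.6 and 75.4 CPM in 100Q. The libraries of 0Q lay close together, and 100Q replicate 3 was only slightly above them. The means were 73.2 ± 0.780 and 79.9 ± 4.15 CPM (SD, n = 3 per group), with a log2 fold change of 0.12 ± 0.09 (SE) and a 95% interval of -0.08 to 0.32. The adjusted p from edgeR, by Benjamini-Hochberg, was 0.987. The exact permutation test gave p = 0.1 (two-sided), again the smallest possible. Leaving out each library gave 0.09 to 0.17 (log2).

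**Figure D2:**
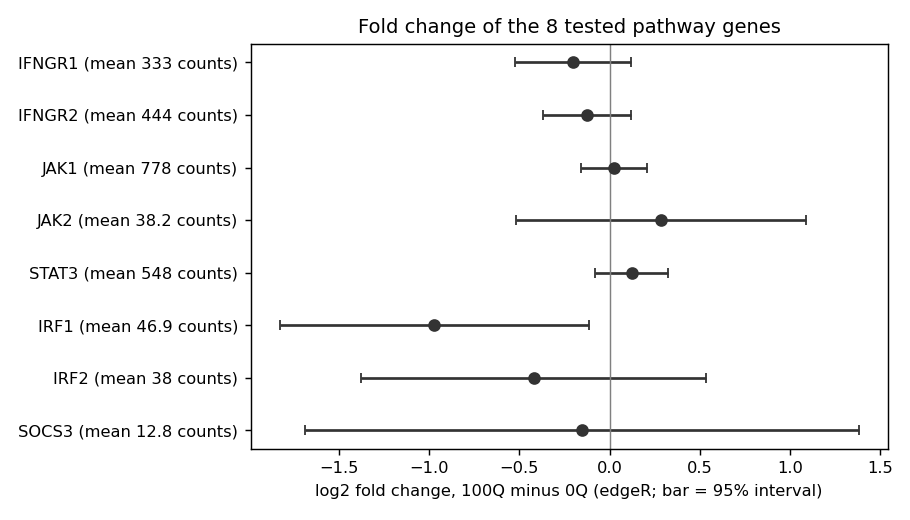
Log2 fold change (100Q minus 0Q, horizontal axis) of the 8 tested genes with 95% intervals from edgeR; the mean estimated count per library stands beside each name. The interval of IRF1 (-1.83 to -0.11) leaves out 0 before any adjustment over genes, and those of the other 7 genes include it. SOCS3, IRF2, JAK2 and IRF1, which have the fewest counts, have wider intervals than the rest.

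The SOCS genes, whose products bind the kinases and end the signal, were close to the limit of detection. SOCS1 (chromosome 16, 11254417 to 11256204, minus strand) had 1, 2 and 1 counts in the 0Q libraries and 7, 0 and 10 in the 100Q libraries, too few to test across genes. The counts of 100Q came from replicates 1 and 3, and replicate 2 had none, which allows up to 3 counts in that library. Summed over libraries, 4 counts in 0Q and 17 in 100Q gave a ratio of 4.72 per library count, with an exact 95% interval of 1.54 to 19.3 that covers counting error only. Across libraries the exact permutation test gave p = 0.4 (two-sided, n = 3 per group), so the difference was not larger than the spread between libraries. SOCS1 lies within RMI2 on the other strand, with 0 shared exon bases.

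SOCS3 (chromosome 17, 78356778 to 78360077, minus strand) had 15, 15 and 9 counts in the 0Q libraries and 1, 6 and 31 in the 100Q libraries, or 2.09, 1.89 and 1.19 and 0.193, 1.51 and 2.66 CPM. The lowest and the highest libraries were both in 100Q. Its log2 fold change was -0.15 (95% interval -1.69 to 1.38; edgeR), 0.32 without 100Q replicate 1 and -1.07 without 100Q replicate 3. The interval includes 2-fold differences in either direction.

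**Figure D3:**
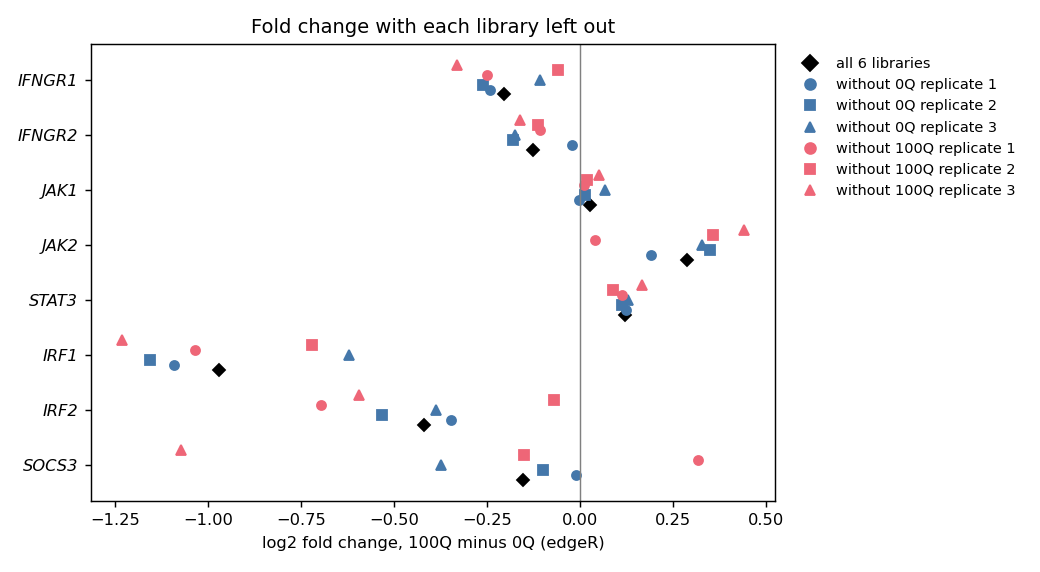
Log2 fold change (100Q minus 0Q, horizontal axis) of each tested gene with all 6 libraries (black diamonds) and with each library left out (blue for 0Q, red for 100Q, symbols for replicates). IRF1 lies between -1.23 and -0.62 in these fits, IRF2 moves from -0.42 to -0.07 without 100Q replicate 2, and SOCS3 spans -1.07 to 0.32.

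In the libraries where 1 member was low, the others were not all low. Of the 8 tested members, 3 (IFNGR1, IRF1 and IRF2) had their lowest level in 100Q replicate 2, where 23.7% of all tested genes had theirs. STAT3 had its highest level there, as did 22.4% of all tested genes. SOCS3 and IFNGR2 were lowest in 100Q replicate 1, whereas JAK2 was highest in it. Of all tested genes 17.4% were lowest and 17.5% highest in that library. 0Q replicate 3 held the highest level of 3 members, IFNGR1, JAK1 and IRF1, and of 16.8% of all tested genes. 100Q replicate 2 is the library with the fewest counts, and the part of its depth in these values was not tested.

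The genes whose pattern over the 6 libraries lay nearest to that of IRF1, by Euclidean distance of log2 CPM centred on each gene's mean, were THBS4 (distance 0.412), SLC25A21 (0.458) and the noncoding ENSG00000266490 (0.524). The length of the IRF1 pattern itself was 1.65 on this scale. THBS4, an extracellular matrix protein, had 1.81, 1.38 and 2.77 CPM in 0Q and 0.770, 0.502 and 1.20 CPM in 100Q. SLC25A21, a mitochondrial carrier, had 4.8, 4.24 and 7.72 CPM and then 4.20, 1.94 and 4.38 CPM. Among the genes nearest to IFNGR1 were OSBPL5 (0.113) and UBR3 (0.139), beside a length of 0.590. UBR3, a ubiquitin ligase, had 52.8, 52.6 and 57.9 CPM in 0Q and 50.1, 33.1 and 53.6 CPM in 100Q, with the low value in 100Q replicate 2 as for IFNGR1.

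Other genes of the pathway gave no call either. In 7 lists of related genes, 0 of 51 tested genes passed with edgeR (Benjamini-Hochberg adjusted p at least 0.987) and 0 had an unadjusted p under 0.05. Of all tested genes 0.0134% were called and 4.72% had such an unadjusted p, so few were to be looked for among 51 genes. Of the other JAKs and STATs, 6 of 7 were tested, with a median log2 fold change of 0.17 and 5 of 6 positive. STAT4, a STAT best known from T cells, had 1.40, 2.01 and 2.64 CPM in 0Q and 3.85, 3.01 and 4.72 CPM in 100Q, with no overlap, and a log2 fold change of 0.95 ± 0.51 (SE). With JAK3, it made up the 2 of 6 tested genes with groups apart, both higher in 100Q. Of all tested genes 10.6% had groups apart, 5.41% higher in 100Q. STAT2, the STAT of the type I interferon response, had 52.9, 57.4 and 51.1 CPM in 0Q and 65.1, 72.1 and 53.2 CPM in 100Q, a log2 fold change of 0.22 ± 0.12. It was 0.12 without 100Q replicate 2 and 0.35 without 100Q replicate 3. Of the other IRFs and the IRF2-binding proteins, 7 of 10 were tested, with a median of -0.03. IRF9, the DNA-binding partner of STAT2, had 3.35, 8.04 and 3.48 CPM in 0Q and 3.84, 2.94 and 4.32 CPM in 100Q, and its log2 fold change of -0.39 was 0.15 without 0Q replicate 2. Leaving out 0Q replicates 1 and 3 in turn gave -0.61 and -0.60. IRF7, a factor induced by interferon, had 0.40 ± 0.66, and leaving out any 1 of the 6 libraries moved it, between 0.15 (without 100Q replicate 2) and 0.84 (without 0Q replicate 1).

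Further brakes and receptor chains were mostly expressed. Of 14 other SOCS, PIAS and phosphatase genes, 13 were tested, with a median of 0.0076 and 8 positive. SOCS7 had 0.28 ± 0.13 and PIAS4, which attaches SUMO to proteins, 0.30 ± 0.15 (log2 fold change with SE), with PIAS4 at 0.18 without 100Q replicate 2. Of 12 related receptor chains 7 were tested, with a median of -0.05. IFNAR1, a chain of the type I interferon receptor, had 63.6, 67.2 and 74.0 CPM in 0Q and 63.2, 61.8 and 62.0 CPM in 100Q, which did not overlap, a log2 fold change of -0.13 ± 0.10, or -0.07 without 0Q replicate 3. It was the 1 of 7 tested chains with groups apart, beside 10.6% of all tested genes. In the lists of other IRFs, brakes, ligands and targets, 0 tested genes had groups apart. IL6R, the interleukin-6 receptor that feeds STAT3, had -0.44 ± 0.33, or -0.26 without 100Q replicate 2.

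Most ligand genes and many classical targets of interferon gamma had few or no counts. IFNG itself had 3 counts in 0Q replicate 2 and 0 in the other 5 libraries, and of 7 ligand genes LIF was the 1 tested, at -0.30 ± 0.56 (log2 fold change with SE). For LIF, leaving out 100Q replicates 1 and 3 in turn gave -0.03 and -0.49, and leaving out 0Q replicates 1 and 2 gave -0.45 and -0.16. Of 20 genes known as interferon gamma or IRF1 targets, 7 were tested and 13 had too few counts, among them IDO1, CXCL9 and CASP1 with 0 counts in every library. The tested targets had a median of -0.06, between -0.17 and 0.03, with the peptidase LAP3 at -0.06 ± 0.10 (log2 fold change with SE). For LAP3, leaving out 0Q replicates 1 and 2 in turn gave -0.02 and -0.10, and leaving out 100Q replicates 1 and 3 gave -0.10 and -0.03. Of the 20, 8 averaged at least 1 CPM. Of 11 targets of STAT3 10 were tested, with a median of 0.0061, and JUNB and HIF1A, transcription factors of growth and hypoxia, had -0.28 ± 0.20 and -0.12 ± 0.11. With 0Q replicates 1 and 3 left out in turn, JUNB was at -0.09 and -0.43 and HIF1A at -0.21 and -0.01. JUNB was at -0.13 without 100Q replicate 1, and HIF1A at -0.06 without 100Q replicate 2. These lists were described by their counts and medians and not tested as sets.

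**Figure D4:**
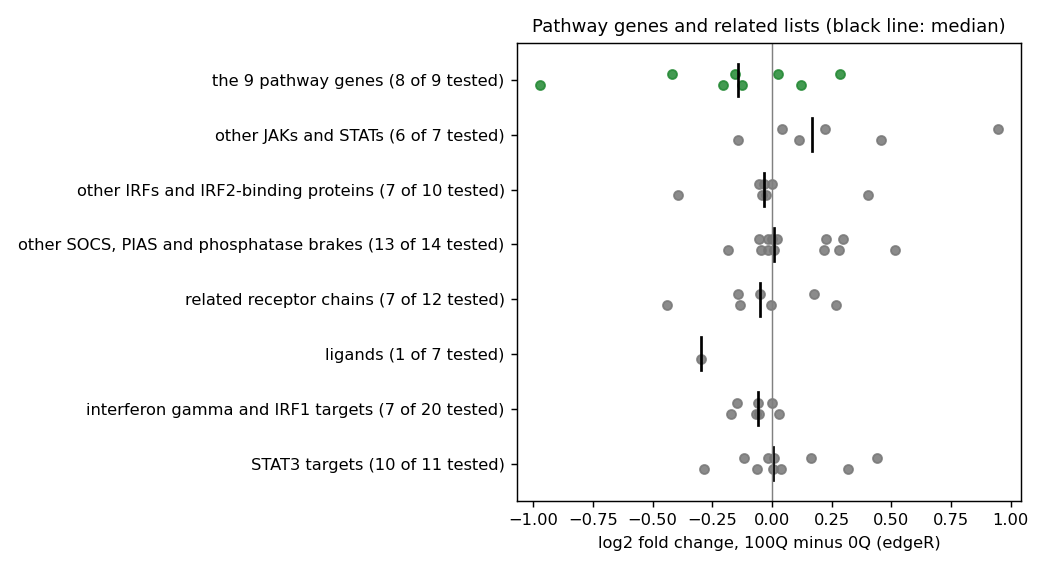
Log2 fold change (100Q minus 0Q, horizontal axis) of each tested gene in the pathway (green) and in 7 related lists (grey), with a black line at each median. Points lie on both sides of 0 in 7 of the 8 rows, the ligand row holds LIF alone, and IRF1 at -0.97 and STAT4 at 0.95 are the outermost points.

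The members differ in how far their messages use the codons that queuosine tRNAs read. In the canonical coding sequence (GENCODE release 44), tyrosine, histidine, asparagine and aspartate codons made up 18.1% of JAK2, 17.6% of JAK1, 15.5% of IFNGR1, 15.1% of IRF1, 14.6% of IRF2, 13.5% of STAT3, 13.4% of IFNGR2, 12% of SOCS3 and 11.8% of SOCS1. The median of 12727 tested genes with a coding sequence was 13.8%, and the kinases stood at percentiles 94.3 and 91.8 of them. The C-ending share of these codons was 88.0% in SOCS1 and 81.5% in SOCS3, at percentiles 95.4 and 89.6, and 31.2% in JAK2 and 26.3% in IFNGR1, at percentiles 9.74 and 3.64. JAK1 and JAK2, with a like share of these codons, thus differ in their C-ending part (53.7% in JAK1), and so do the receptor chains (60% in IFNGR2). IRF1, with 57.1% ending in C, lay near the median of 55.6%. A relation of codon use to the fold changes was not tested, since 8 members are too few and were not chosen for it.

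**Figure D5:**
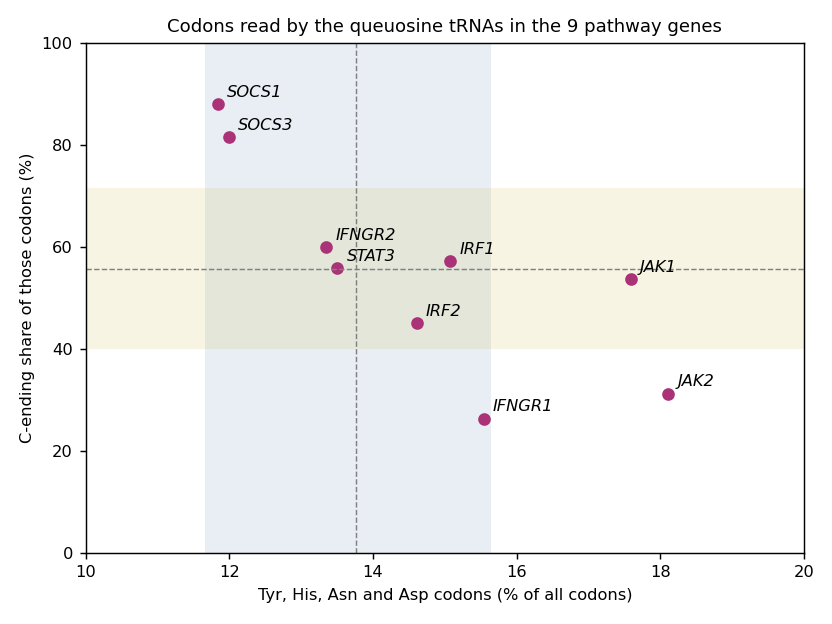
Share of tyrosine, histidine, asparagine and aspartate codons in each gene's coding sequence (horizontal axis, %) against the C-ending share of those codons (vertical axis, %); dashed lines and shaded bands give the median and the middle 50% of 12727 tested genes. JAK1 and JAK2 lie to the right at 17.6% and 18.1%, the SOCS genes at the top left, and IFNGR1 and JAK2 below the band at 26.3% and 31.2%.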

How the data were processed

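Messenger RNA libraries of 3 samples of 0Q and 3 of 100Q were analysed, grouped by the sample titles. The authors deposited 1 table of estimated counts by Ensembl identifier, with no normalization; the submitters' processing notes name FastQC, STAR and RSEM without versions, and the series design gives hg38. The sources used here do not give annotation, strand setting or molecular identifiers. Gene names came from GENCODE release 44 by identifier without version (62541 of 63086 matched; the rest held 0.129% of counts). Rounded counts went into edgeR 4.0.16 (R 4.3.3, quasi-likelihood test): TMM scaling, default filter at a minimum count of 10, Benjamini-Hochberg adjustment over all 14905 tested genes, threshold 0.05, no block. CPM used unrounded counts and TMM-scaled library sizes. Totals per library set the precision: an interval or a floor of 3 counts covers counting error only, since PCR reads are not independent molecules.

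Members and lists were chosen with earlier results of these data known. Named were all members, from each list the genes past the threshold or else the 2 with the smallest p, genes overlapping a member, and the 3 genes nearest to IRF1 and to IFNGR1; some of these are not reported here. Alternatives were RLE scaling, library size only, no filter or a mean count of 50, the replicate number as a block, DESeq2 1.42.0, limma-voom (limma 3.58.1) and leaving out each library. The edgeR fit was also run on simulated counts with known changes, whose means and dispersions came from the fit to these data. That simulation held no library standing apart, and its outcome is not reported here. Within groups, each pair of libraries differed beyond counting noise (chi-square divided by its degrees of freedom, 5.23 to 14.4), so none was taken as a duplicate.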

Additional observations from a re-analysis of the deposited data

How the results depend on the processing

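No tested member (8, or 9 with no filter) passed under any of the 14 alternatives run, with a smallest adjusted p of 0.765 (edgeR, Benjamini-Hochberg, IRF1 without 100Q replicate 3). Of 108 refits of member fold changes 2 turned the sign: with each library left out, JAK1 ran from -0.0025 to 0.067 and SOCS3 from -1.07 to 0.32. Of the other named genes 1 turned, IRF9, from -0.61 to 0.15. The median of the members was -0.045 over the 4 members with a mean count of at least 50, and between -0.25 and -0.017 with each library left out; RLE scaling, library size only, no filter, DESeq2 and limma-voom gave -0.16 to -0.12. Over all genes, 2 were called with all libraries, 71 without a filter on low counts (36 higher, 35 lower), 1 at a mean count of at least 50, 11 by DESeq2, 1 by limma-voom, and 0 to 6 with each library left out. With the replicate block 3 genes were called, the median of the members was -0.18 and 0 members passed. Same-numbered libraries correlated at 0.0014, -0.020 and 0.081 in their deviations from the group means, and other-numbered ones at -0.086 to 0.069. The labels do not say if the numbers pair the libraries, and so few correlations cannot decide it. The cause of the shifts between settings was not tested. JAK2, IRF1, IRF2, SOCS1 and SOCS3 averaged under 50 counts per library; the part of depth in their spread was not tested.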

Other observations

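STAT5A, a member of the related list that had too few counts to test, was singled out after its values were seen. It had 0 counts in each library of 0Q and 4.06, 1 and 6.54 estimated counts in 100Q. The fractions were completed by its neighbour STAT5B, a close paralog, to whole sums of 449, 306 and 844 in 100Q. As CPM the sums of both genes were 66.7, 78.9 and 70.1 in 0Q and 86.4, 76.8 and 72.4 in 100Q, so the groups overlapped. How the reads divide between these paralogs is uncertain.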
